A study of Mus musculus with 8 samples.

Results

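The polypeptide GalNAc-transferases (GALNTs) and the core 1 synthase C1GALT1 were followed in splenic CD4+ T cells of mice whose parents had or had not received cadmium (Cd). The genes were taken by symbol from the deposited table, and all 10 were found among its 27179 genes: Galnt1, Galnt2, Galnt3, Galnt4, Galnt6, Galnt7, Galnt10, Galnt11, Galnt12 and C1galt1. The RNA of 8 libraries was sequenced in 4 groups of 2, each group holding replicates numbered 6 and 7. All mice carried the Foxp3 reporter allele of strain C.Cg-Foxp3tm2Tch/J and were 8 weeks old, and their sex was not given for these libraries. Parents of the Cd offspring drank water with 10 ppm CdCl2 from before mating. The males were removed after cohabitation, and the females kept this water until it was exchanged for unspiked water within 12 hours of birth. Parents of the control offspring drank unspiked water throughout. The CD4+ T cells were taken at 0 hours (unstimulated) or after 16 hours with beads that carry antibodies to CD3 and CD28 (stimulated). The cells were isolated by negative selection and sorted, and the study describes them as CD4+CD25- conventional T cells. Nothing in the labels ties a library to one animal or litter, so each p-value measures only the spread between these libraries, which may be technical.

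Mucin-type O-glycosylation begins in the Golgi when a GALNT moves N-acetylgalactosamine from UDP-GalNAc onto a serine or threonine. Some family members act on bare peptides and others prefer peptides that already carry a GalNAc, so a dense glycan cluster is built by several enzymes in turn. C1GALT1, with its chaperone COSMC, then adds galactose to form core 1, which sialyltransferases and branching enzymes extend. On T cells these chains cover CD43, CD45 and the P-selectin ligand PSGL-1, and they are known to be remodelled when the cells are activated. The study asked after GALNT1 and GALNT7 because the lncRNA Snhg7 had been linked to them through the miRNAs miR-216b and miR-34a.

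The libraries held 15542732 to 25486791 reads counted on genes, with a median of 19434588, and replicates correlated across genes with Pearson's r between 0.983 and 0.990. Levels are given as RPKM, the reads of a gene scaled to its counted length and to the reads of the library. This corrects for gene length and so lets genes be compared with each other. RPKM is relative to the other RNA of the library and gives no amount per cell. The 5 CD4 T cell markers (Cd3d, Cd3e, Cd3g, Cd4 and Lck) were high in every library, and the activation genes Il2ra, Cd69, Il2 and Myc summed to 140 to 194 RPKM in unstimulated and 635 to 694 RPKM in stimulated libraries. Of 14 markers of B cells, myeloid cells, NK cells, CD8 T cells and red cells, 10 stayed below 1 RPKM in all 8 libraries, with Ms4a1, Cd14 and Hba-a1 among those at 0. The other 4 were Cd8b1 at 9.40 to 11.7 RPKM, Cd79a at 2.87 to 4.73 RPKM, Klrb1c and Itgam. Foxp3, which marks regulatory T cells, lay between 4.48 and 7.69 RPKM.

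Most of these enzyme genes were lower after stimulation in both kinds of offspring. Of the 9 members with a mean of at least 0.5 RPKM, 8 fell in control and 9 in Cd offspring (adjusted p under 0.05), and none rose. Among all 12605 genes tested, 27.8% fell and 36.9% rose in control offspring, and 29.4% fell and 36.5% rose in Cd offspring. Only Galnt6 and Galnt10 passed the stricter rule of an adjusted p under 0.01 and more than a 2-fold fall, in control and in Cd offspring alike, against 7.17% and 7.24% of all genes. The median log2 fold change of the 9 members was -0.50 in control and -0.38 in Cd offspring, beside 0.07 and 0.05 over all genes tested. Quantile normalization moved the median of all genes in control offspring from 0.07 to -0.03 and left both counts of members that fell as they were. Galnt3, the member below 0.5 RPKM, moved the other way. Differences are log2 fold changes of RPKM + 0.1 from limma with Benjamini-Hochberg adjustment over all genes tested. In bulk RNA, fewer cells of a type, less RNA of a gene per cell and more RNA of other genes cannot be told apart.

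Of the markers of other cells above 1 RPKM, 2 were lower after stimulation. Klrb1c carried the summed NK cell markers, which lay between 3.15 and 4.35 RPKM in unstimulated and between 0.147 and 0.293 RPKM in stimulated libraries, while Ncr1 was at or near 0 throughout. Itgam carried the summed myeloid markers, which lay between 1.87 and 2.03 RPKM before and between 0.38 and 0.582 RPKM after stimulation. Lyz2 and Cd14 were at or near 0. Csf1r had means of 0.183 and 0.201 RPKM before and after in control offspring and of 0.291 and 0.104 RPKM in Cd offspring. The summed CD4 T cell markers also went down, from 1770 to 1900 RPKM to 1120 to 1160 RPKM. The part of these shifts in the falls of the enzyme genes was not tested.

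**Figure D1:**
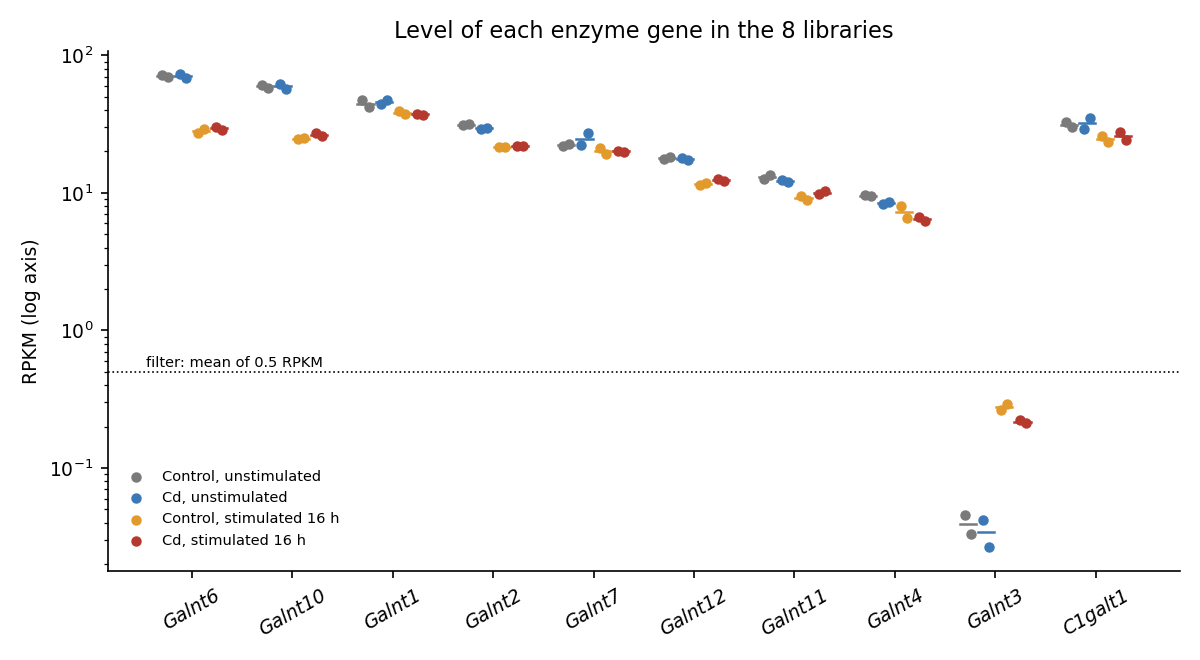
RPKM of the 10 enzyme genes on a log axis, with 1 point per library, 2 libraries per group and a bar at the group mean; the dotted line is the filter at a mean of 0.5 RPKM. Above the line, Galnt6 and Galnt10 show the widest gaps between unstimulated and stimulated libraries. Galnt3 alone lies below the line, is higher after stimulation and has a wider gap on this axis, from few reads.

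In unstimulated cells the order of levels was the same in control and Cd offspring. Galnt6 came first with 70.7 ± 1.11 RPKM (SD, n = 2) in control and 70.7 ± 2.77 in Cd offspring, Galnt10 came second with 59.4 ± 2.15 and 59.4 ± 4.10, and Galnt1 came next with 44.5 ± 3.83 and 45.9 ± 2.26. C1galt1 and Galnt2 followed at 31.3 and 31.2 RPKM in control offspring, and the libraries of these neighbours overlapped. Galnt7, Galnt12, Galnt11 and Galnt4 came next, from 22.2 down to 9.56 RPKM in control offspring, each without overlap with its neighbour. After 16 hours Galnt1 led the order with 38.2 ± 1.35 RPKM in control and 37.3 ± 0.671 in Cd offspring, ahead of Galnt6. The libraries of Galnt10 and C1galt1 then overlapped, and the lower places kept their order. Galnt3 was last in all 4 groups.

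The GALNT genes took a smaller share of the reads after stimulation, and their make-up became more even. The summed RPKM of the 9 GALNT genes was 272.3 and 264.7 in the unstimulated control libraries and 162.8 and 159.8 after stimulation. In Cd offspring the sums were 269.2 and 267.5 before and 166.6 and 162.2 after stimulation, so stimulated and unstimulated libraries did not overlap in either exposure. Galnt6 and Galnt10 together made up 48.4% ± 0.247 (SD, n = 2) of the sum in unstimulated control libraries and 32.8% ± 1.46 in stimulated ones, and 48.5% ± 2.35 and 34.1% ± 0.493 in Cd offspring. The share of Galnt1 went from 16.6% ± 1.09 to 23.7% ± 0.521 in control offspring and that of Galnt7 from 8.29% ± 0.341 to 12.6% ± 0.702. The sum without Galnt6 and Galnt10 was also lower after stimulation, at 138.5 ± 2.11 RPKM before and 108.4 ± 3.79 after in control offspring.

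**Figure D2:**
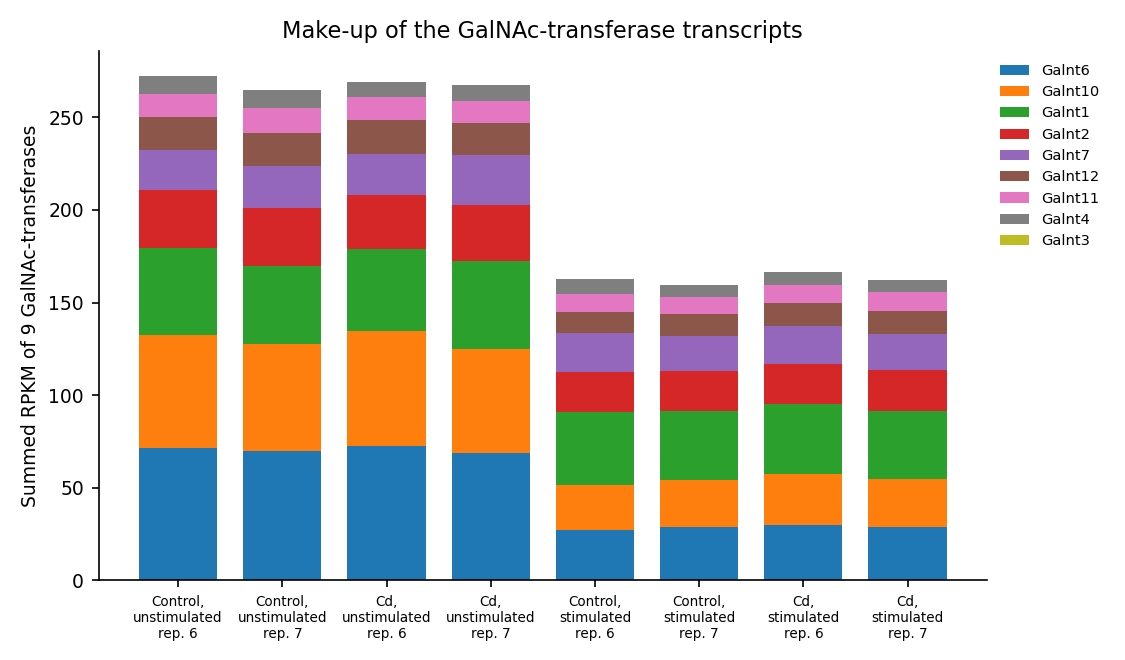
Summed RPKM of the 9 GALNT genes in each of the 8 libraries, with each gene a segment of the bar. The 4 unstimulated bars reach 264.7 to 272.3 RPKM and the 4 stimulated bars 159.8 to 166.6 RPKM, and the Galnt6 and Galnt10 segments account for most of the gap.

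Galnt6, a peptide-acting GALNT known for glycosylating fibronectin, was the most abundant member in unstimulated cells and fell the most. It lies on chromosome 15 of GRCm38 from 100689915 to 100729376. Its libraries held 71.4 and 69.9 RPKM in unstimulated and 27.2 and 29.0 RPKM in stimulated control cells. The Cd libraries held 72.6 and 68.7 RPKM before and 30.2 and 28.8 RPKM after stimulation. The stimulated libraries lay below every unstimulated one. The log2 fold change was -1.33 (SE 0.06, adjusted p = 1.16e-06), a 2.51-fold fall, in control offspring and -1.26 (SE 0.06, adjusted p = 1.56e-06), a 2.39-fold fall, in Cd offspring. The span of Galnt6 also holds the antisense gene Galnt6os, which has no row in the table, and without a stated strand setting the reads of the pair cannot be told apart. RefSeq lists 2 starts for Galnt6. The promoter of the upstream one (chr15:100729327-100729626, GRCm38.p6, minus strand, from 250 bases before to 50 after the start) is shown because this gene fell most. Matches to GGGCGG, the GC box bound by Sp factors, are in capitals on either strand.
Galnt6: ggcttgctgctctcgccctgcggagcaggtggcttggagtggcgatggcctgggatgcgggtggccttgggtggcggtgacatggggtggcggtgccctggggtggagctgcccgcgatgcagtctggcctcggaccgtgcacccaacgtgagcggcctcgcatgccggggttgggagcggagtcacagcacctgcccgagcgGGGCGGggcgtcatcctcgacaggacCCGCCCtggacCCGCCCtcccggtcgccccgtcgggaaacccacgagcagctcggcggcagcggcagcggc
This window held 3 GC boxes, and 35.7% of 32851 promoters of the same length held at least 1. It held 31 CpG dinucleotides, more than 89.4% of those promoters. On both strands it held no match to TGANTCA, the AP-1 motif, or to CACGTG, the E-box, which 7.81% and 7.15% of promoters contain, and 1 match to GGAAA, the NFAT core, which 61.3% contain. Which start the T cells used was not measured.

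Galnt3, a peptide-acting GALNT known for protecting the phosphate hormone FGF23, was read a few times per library and was the single member that was higher after stimulation. It lies on chromosome 2 from 66082766 to 66125056 and was counted on 3684 bases. The unstimulated control libraries held 3 and 2 Galnt3 reads, as did the unstimulated Cd libraries. Stimulated control libraries held 15 and 21 and stimulated Cd libraries 18 and 20, so no stimulated library overlapped an unstimulated one. Per read counted on genes, the rate was 7.05 times as high after stimulation in control offspring (exact 95% interval 2.76 to 23.0) and 6.40 times as high in Cd offspring (2.51 to 20.8), where the intervals cover counting error only. In RPKM these are 0.0393 ± 0.00846 before and 0.278 ± 0.0220 after stimulation in control offspring (SD, n = 2). In a fit without the filter on low values Galnt3 rose, with log2 fold changes of 1.44 (SE 0.17, adjusted p = 0.000481) in control and 1.25 (SE 0.17, adjusted p = 0.000974) in Cd offspring. With a pseudocount of 1 RPKM in place of 0.1 these became 0.30 and 0.24, since the whole change lies below 1 RPKM. Its promoter entry (chr2:66124744-66125043, GRCm38.p6, minus strand) is set beside that of Galnt6 because the pair moved in opposite directions. This window lies wholly within the span of Galnt3 given above, so its start is downstream of the annotated 5′ end of the gene. GC boxes are again in capitals.
Galnt3: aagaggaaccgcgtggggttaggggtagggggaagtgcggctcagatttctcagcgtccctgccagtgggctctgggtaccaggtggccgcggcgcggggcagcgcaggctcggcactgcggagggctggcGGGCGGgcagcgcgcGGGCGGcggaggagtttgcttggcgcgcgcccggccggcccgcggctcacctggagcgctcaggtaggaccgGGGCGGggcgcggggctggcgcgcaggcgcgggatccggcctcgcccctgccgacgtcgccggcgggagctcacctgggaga
It held 3 GC boxes, no AP-1 motif and no E-box, like the Galnt6 window, and 41 CpG dinucleotides.

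Galnt2 and Galnt11 are peptide-acting too, GALNT2 with a very broad choice of substrates and GALNT11 known for modifying the receptor NOTCH1. Galnt2, on chromosome 8 from 124231394 to 124345722, held 31.0 and 31.5 RPKM in unstimulated and 21.4 and 21.6 RPKM in stimulated control libraries. Cd libraries held 29.0 and 29.8 RPKM before and 22.0 and 22.0 RPKM after stimulation. The gap between the conditions was wide beside the spread of the pairs, and Galnt2 fell by 0.54 on the log2 scale (SE 0.05, adjusted p = 3.75e-05) in control and by 0.42 (SE 0.05, adjusted p = 0.000143) in Cd offspring. Galnt11, on chromosome 5 from 25222872 to 25265918, held 12.6 and 13.5 RPKM in unstimulated and 9.50 and 8.86 RPKM in stimulated control libraries. The Cd libraries held 12.4 and 11.9 RPKM before and 9.84 and 10.2 RPKM after stimulation, again without overlap. Its log2 fold change was -0.50 (SE 0.07, adjusted p = 0.000508) in control and -0.27 (SE 0.07, adjusted p = 0.0109) in Cd offspring, where the adjusted p was 0.0676 without stimulated replicate 6.

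Galnt1, which initiates glycans on many peptides and whose loss in mice is known to disturb lymphocyte homing, fell little. It lies on chromosome 18 from 24205321 to 24286816. Control libraries held 47.2 and 41.8 RPKM before and 39.2 and 37.3 RPKM after stimulation. Cd libraries held 44.3 and 47.5 RPKM before and 37.7 and 36.8 RPKM after. Each stimulated library lay below each unstimulated one, although the unstimulated control pair differed by more than the gap to the next stimulated library. The log2 fold change was -0.22 (SE 0.07, adjusted p = 0.0269) in control and -0.30 (SE 0.07, adjusted p = 0.00687) in Cd offspring. In control offspring the adjusted p became 0.158 without unstimulated replicate 6, 0.0521 without stimulated replicate 6 and 0.13 without stimulated replicate 7, with log2 fold changes of -0.13, -0.25 and -0.18.

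**Figure D3:**
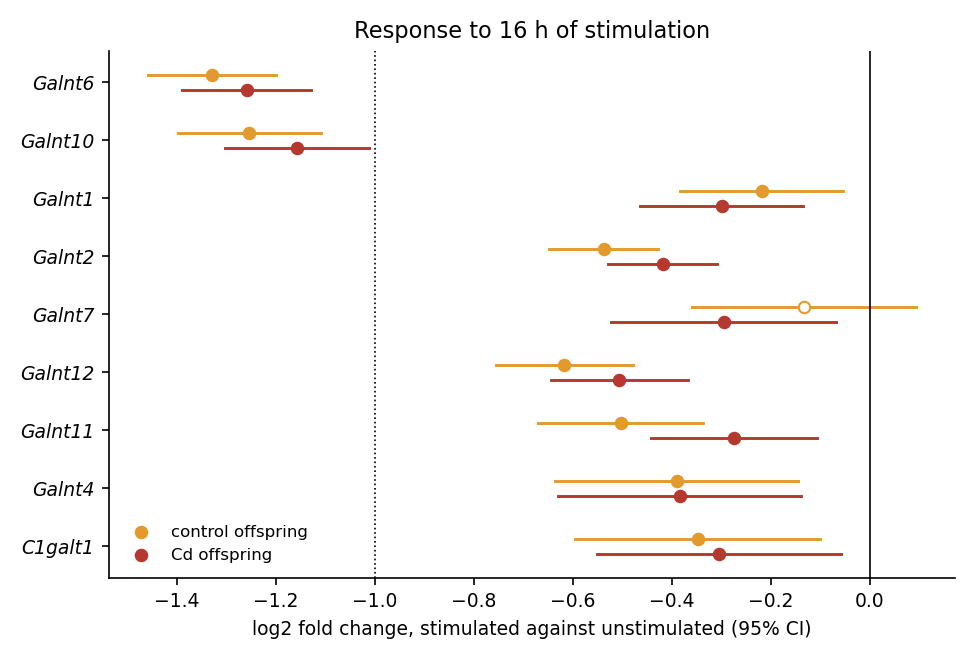
Log2 fold change with 95% confidence interval of the 9 members tested, stimulated against unstimulated, in control and Cd offspring; filled points have an adjusted p under 0.05 and the dotted line marks a 2-fold fall. Galnt6 and Galnt10 lie left of the dotted line in both exposures, and the other 7 lie between -0.62 and -0.13.

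Galnt12 and Galnt4 can act on bare peptides but favour those already glycosylated, and GALNT4 is known to modify PSGL-1. Galnt12, on chromosome 4 from 47091894 to 47123058, went from 17.5 and 18.2 RPKM to 11.4 and 11.8 RPKM in control libraries and from 18.0 and 17.4 RPKM to 12.6 and 12.3 RPKM in Cd libraries. It fell by 0.62 on the log2 scale (SE 0.06, adjusted p = 6.14e-05) in control and by 0.51 (SE 0.06, adjusted p = 0.000182) in Cd offspring. Galnt4, on chromosome 10 from 99108135 to 99113247, held 9.67 and 9.46 RPKM before and 8.04 and 6.58 RPKM after stimulation in control offspring. The Cd values were 8.24 and 8.60 RPKM before and 6.66 and 6.20 RPKM after. Stimulated and unstimulated libraries did not overlap within an exposure, but the stimulated control libraries were far apart. The log2 fold change was -0.39 (SE 0.10, adjusted p = 0.0127) in control and -0.38 (SE 0.10, adjusted p = 0.0135) in Cd offspring. The adjusted p passed 0.05 without unstimulated replicate 6 (0.0585) or stimulated replicate 7 (0.0735, with a log2 fold change of -0.25) of control offspring, and without unstimulated replicate 7 (0.0548) or stimulated replicate 7 (0.0793) of Cd offspring. Galnt4 lies within the span of Poc1b on the same strand, so reads may be shared between the pair. Poc1b was lower after stimulation too, at 11.9 and 12.3 RPKM before and 9.91 and 9.13 RPKM after in control offspring and at 12.7 and 12.9 RPKM before and 10.4 and 9.50 RPKM after in Cd offspring, and its part in the Galnt4 values was not tested.

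Galnt10 and Galnt7 are the follow-up enzymes of the family, which need a GalNAc already in place on the peptide. They parted here: Galnt10 fell nearly as far as Galnt6, and Galnt7 moved least of the members tested in control offspring. Galnt10, on chromosome 11 from 57645442 to 57787514, held 60.9 and 57.8 RPKM in unstimulated and 24.6 and 25.1 RPKM in stimulated control libraries. Among Cd libraries the values were 62.3 and 56.5 RPKM before and 27.2 and 25.9 RPKM after stimulation, far from overlap. Its log2 fold change was -1.25 (SE 0.06, adjusted p = 2.31e-06), a 2.38-fold fall, in control and -1.16 (SE 0.06, adjusted p = 3.54e-06), a 2.23-fold fall, in Cd offspring. The Galnt10 promoter (chr11:57645192-57645491, GRCm38.p6, plus strand) is shown because Galnt10 moved together with Galnt6.
Galnt10: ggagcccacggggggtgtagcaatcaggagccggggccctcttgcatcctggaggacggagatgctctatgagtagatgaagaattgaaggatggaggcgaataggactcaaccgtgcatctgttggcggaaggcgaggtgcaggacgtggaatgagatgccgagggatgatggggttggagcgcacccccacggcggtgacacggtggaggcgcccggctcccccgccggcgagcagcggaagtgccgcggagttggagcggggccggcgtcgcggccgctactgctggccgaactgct
It held no GC box, no AP-1 motif and no E-box, so it carries no capitals. The window of the second Galnt6 start also held no GC box, with 10 CpG dinucleotides beside 28 for Galnt10. The printed windows of both genes had matches to CACCC, the box read by Krüppel-like factors, with 5 for Galnt6 and 2 for Galnt10. This motif is held by 57.5% of promoters. The Galnt7 and C1galt1 windows held 1 match each, and the Galnt3 window and both windows of Galnt11, which also fell, held 0. None of the motif matches in the 3 printed promoters overlapped a match to another of these motifs. Promoter entries were found for 6 of the 10 members, and none for Galnt1, Galnt2, Galnt4 and Galnt12.

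Galnt7, on chromosome 8 from 57523825 to 57653055, held 21.9 and 22.6 RPKM before and 21.3 and 19.3 RPKM after stimulation in control offspring. In Cd offspring it held 22.2 and 27.2 RPKM before and 20.3 and 19.8 RPKM after. The control libraries nearly met, and unstimulated replicate 7 of the Cd offspring stood above the other 7 libraries. In control offspring the log2 fold change was -0.13 (95% interval -0.36 to 0.09, adjusted p = 0.263). In Cd offspring it was -0.30 (95% interval -0.52 to -0.07, adjusted p = 0.0285), which became -0.15 with an adjusted p of 0.122 without unstimulated replicate 7, and 0.0773 or 0.111 without stimulated replicate 6 or 7. The 2 responses differed by -0.16 (95% interval -0.48 to 0.16, adjusted p = 0.682).

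The RNAs that the study linked to Galnt7 and Galnt1 were read in the same libraries. Snhg7 rose from 7.57 and 9.43 RPKM to 18.6 and 20.1 RPKM in control offspring (log2 fold change 1.18, SE 0.11, adjusted p = 5.66e-05) and from 7.22 and 6.76 RPKM to 17.2 and 18.8 RPKM in Cd offspring (1.35, SE 0.11, adjusted p = 2.92e-05). The row for Mir34a held 0 reads in the 4 unstimulated libraries, 2 and 3 reads in the stimulated control libraries and 2 and 7 in the stimulated Cd libraries, and that for Mir216b held 0 reads in all 8. A library made from mRNA does not measure mature miRNAs, so these reads give no level of either miRNA. The mature forms are shown with bases 2 to 8, the seed that pairs with targets, in capitals (RefSeq, GRCm38.p6, chr4:150068473-150068494 and chr11:28746204-28746225, both plus strand).
mmu-miR-34a-5p: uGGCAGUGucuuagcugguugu
mmu-miR-216b-5p: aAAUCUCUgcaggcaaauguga
The matching 7 letters, CACTGCC for miR-34a and AGAGATT for miR-216b, were looked for in the longest annotated 3′ UTR of each member (GENCODE vM21, transcript strand only). Of the 10 members Galnt7 had a CACTGCC match, and Galnt4 and Galnt11 had an AGAGATT match; each is printed with the match in capitals.
Galnt7: tttacatctttcggaagCACTGCCacgggt
Galnt4: ggaccacccacctggctAGAGATTccatga
Galnt11: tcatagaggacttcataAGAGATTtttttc
The Galnt7 match lies at chr8:57525616-57525622 on the minus strand and begins at base 492 after the stop codon. The Galnt4 match lies at chr10:99112243-99112249 and the Galnt11 match at chr5:25265727-25265733, both on the plus strand. Among 20987 genes with a 3′ UTR, 14.2% held CACTGCC and 11.6% held AGAGATT. Among 3′ UTRs from 0.8 to 1.25 times as long as that of the member, 23.3% held CACTGCC for Galnt7, and 24.6% and 4.16% held AGAGATT for Galnt4 and Galnt11. A match describes the letters only. The log2 fold changes of these members after stimulation were -0.13 in control and -0.30 in Cd offspring for Galnt7, -0.39 and -0.38 for Galnt4, and -0.50 and -0.27 for Galnt11.

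C1galt1 encodes the enzyme that forms core 1 on the GalNAc a GALNT has placed. The gene lies on chromosome 6 from 7845224 to 7872042. Control libraries held 32.6 and 29.9 RPKM before and 25.7 and 23.4 RPKM after stimulation, and Cd libraries 29.2 and 34.9 RPKM before and 27.6 and 24.2 RPKM after. The groups did not overlap, but the Cd pairs were wide. C1galt1 fell by 0.35 on the log2 scale (SE 0.11, adjusted p = 0.0213) in control and by 0.30 (SE 0.11, adjusted p = 0.0355) in Cd offspring. The adjusted p passed 0.05 without unstimulated replicate 6 (0.112) or stimulated replicate 7 (0.113) of control offspring and without unstimulated replicate 7 (0.185, with a log2 fold change of -0.18) or stimulated replicate 7 (0.197, with -0.21) of Cd offspring. Its chaperone gene C1galt1c1 (COSMC) held 9.67 and 9.04 RPKM in unstimulated and 9.65 and 9.76 RPKM in stimulated control libraries, with a log2 fold change of 0.05 (adjusted p = 0.604).

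No member passed the test for prenatal Cd, in unstimulated or in stimulated cells. In unstimulated cells 0 of 9 passed an adjusted p of 0.05 for Cd against control, and 0.896% of all genes did. In stimulated cells 0 of 9 passed, as did 0% of all genes. At an unadjusted p under 0.05 limma again gave 0 of 9 members in both, beside 1748 and 414 of 12605 genes, and voom on the recovered reads gave 0 of 9 at either threshold. In limma the lowest unadjusted p in unstimulated cells was 0.106 for Galnt2, with a log2 fold change of -0.09 (95% interval -0.20 to 0.02). In stimulated cells it was 0.112 for Galnt11, with 0.13 (95% interval -0.04 to 0.30). With voom the lowest were 0.0542 in unstimulated and 0.0877 in stimulated cells. Both were for Galnt4, with log2 fold changes of -0.18 and -0.17. The limma intervals allow differences of this order and more. For Galnt4 they ran from -0.43 to 0.06 in unstimulated and from -0.42 to 0.07 in stimulated cells. For Galnt7 they ran from -0.08 to 0.37 and from -0.25 to 0.21. For Galnt6 they were tighter, from -0.13 to 0.13 and from -0.06 to 0.20.

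Libraries of Cd and control offspring did not overlap for 3 of the 9 in unstimulated cells, Galnt2, Galnt4 and Galnt11, each lower in Cd offspring, where 42.3% of all genes did not overlap. In stimulated cells they did not overlap for 4 of the 9, Galnt2, Galnt10, Galnt11 and Galnt12, each higher in Cd offspring, where 36.7% of all genes did not. With 2 libraries against 2, an exact two-sided permutation test cannot go below 0.333. Galnt3, below the filter, held 18 and 20 reads in stimulated Cd libraries and 15 and 21 in stimulated control libraries. Scaled to library size these were 0.222 and 0.213 RPKM in Cd and 0.262 and 0.293 RPKM in control libraries, lower in Cd offspring without overlap. In the fit without the filter its log2 fold change there was -0.25 (95% interval -0.65 to 0.16).

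The response to stimulation differed by exposure for 0 of the 9 members, against 0.357% of all genes. At an unadjusted p under 0.05 the count was 0 of 9 as well, and 1332 over all genes. Galnt11 came nearest, with a fall of 0.50 in control and 0.27 in Cd offspring on the log2 scale and a difference of 0.23 (95% interval -0.0071 to 0.47, adjusted p = 0.479 in limma). Its unadjusted p in limma was 0.0556. Galnt2 differed by 0.12 (95% interval -0.04 to 0.27). Both stimulation responses and both Cd comparisons share the same groups of libraries.

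**Figure D4:**
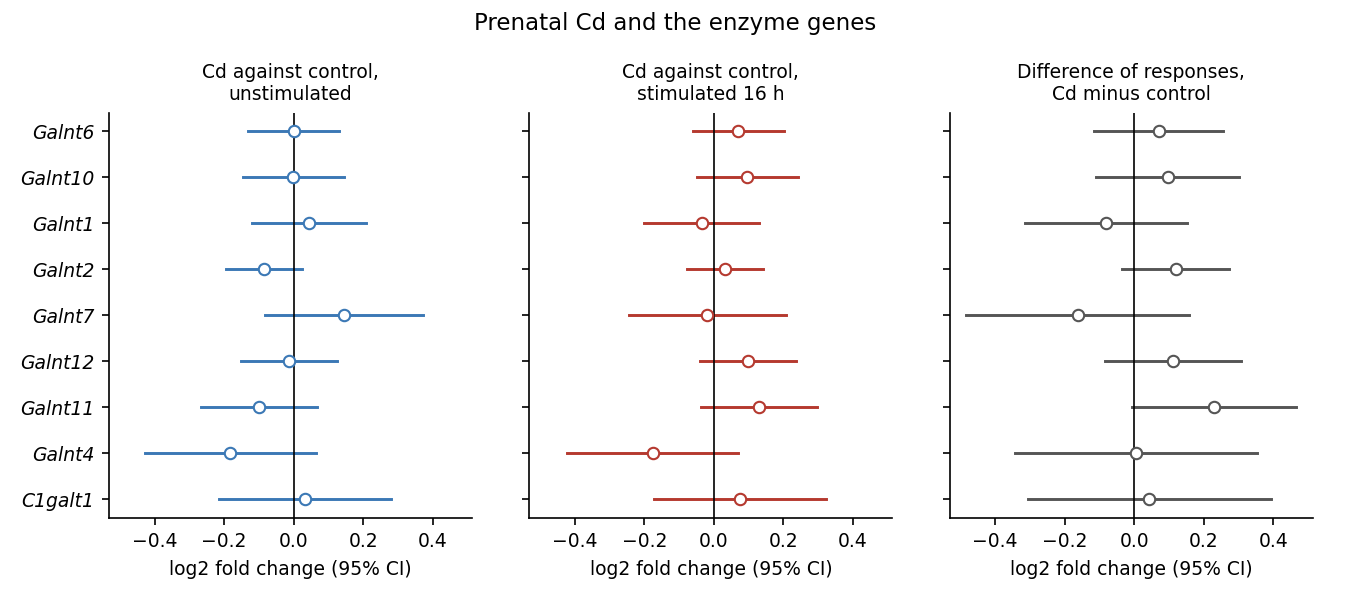
Log2 fold change with 95% confidence interval of the 9 members tested, for Cd against control offspring in unstimulated cells (left) and stimulated cells (middle) and for the difference of the stimulation responses (right); open points have an adjusted p of 0.05 or more. No point is filled, and the largest lies at 0.23 for Galnt11 in the right panel.

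The rest of the family was hardly detected. Of 10 further family members, 5 were at 0 in all libraries and 1, Galnt9, passed the filter, with 2.84 to 3.78 RPKM and a log2 fold change of -0.16 in control offspring (adjusted p = 0.391).

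Genes around the GALNT step moved in both directions. The 6 lists cover the rest of the GALNT family, core extension, sialic acid capping, selectin ligand finishing, sugar nucleotide supply and carrier proteins, and 31 of their 48 genes were tested. In control offspring 16 of the 31 rose and 5 fell at an adjusted p under 0.05, and in Cd offspring 15 rose and 4 fell, beside the shares of all genes given above. Median log2 fold changes in control offspring were 0.60 for sialic acid capping, 0.33 for sugar nucleotide supply and -0.11 for the carriers, and 0.07 over all genes. Core extension had 2 genes tested, and B3gnt3, an enzyme that lengthens core 1, rose with a log2 fold change of 0.61 (adjusted p = 0.0425) in control and 0.70 (adjusted p = 0.0235) in Cd offspring. Gcnt1, the core 2 branching enzyme, was below 0.2 RPKM in every group mean.

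The widest changes in these lists were among the genes for sialic acid capping. Of 9 sialyltransferases tested 5 rose and 2 fell in control offspring, and 6 rose and 2 fell in Cd offspring. St6galnac4, which places sialic acid on the GalNAc of an already sialylated core 1, held 4.72 and 3.95 RPKM before and 28.4 and 29.6 RPKM after stimulation in control offspring. For Cd offspring the values were 3.83 and 3.94 RPKM before and 26.0 and 27.5 RPKM after. No stimulated library came near an unstimulated one, and the log2 fold changes were 2.72 (adjusted p = 5.66e-07) and 2.75 (adjusted p = 6.17e-07). St6galnac6 rose by 2.57 in control and 2.18 in Cd offspring from levels below 0.7 RPKM. St3gal6, which caps galactose, went the other way, from 14.6 and 13.6 RPKM to 5.49 and 4.58 RPKM in control offspring, a log2 fold change of -1.47 (adjusted p = 9.99e-06), and -1.42 in Cd offspring.

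Genes that make and carry the sugar donors rose or did not pass the test. Of 12 tested 8 rose and 0 fell in control offspring, and 5 rose and 0 fell in Cd offspring. Gnpnat1 and Uap1, which act on the route to UDP-GlcNAc, rose by 1.04 and 0.76 in control and by 0.98 and 0.66 in Cd offspring. The carriers of the glycans split. Selplg, the gene of PSGL-1, fell by 1.01 in control and by 0.87 in Cd offspring, and Cd44 rose by 0.96 and 0.86. Of the 2 genes of selectin ligand finishing that were tested, B4galt1 fell by 0.16 in control offspring (adjusted p = 0.0176) and B4galt5 rose by 0.22 in Cd offspring (adjusted p = 0.0259). Cd exposure changed 0 of the 31 in unstimulated cells, 0 in stimulated cells and 0 in the difference of responses at an adjusted p under 0.05.

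**Figure D5:**
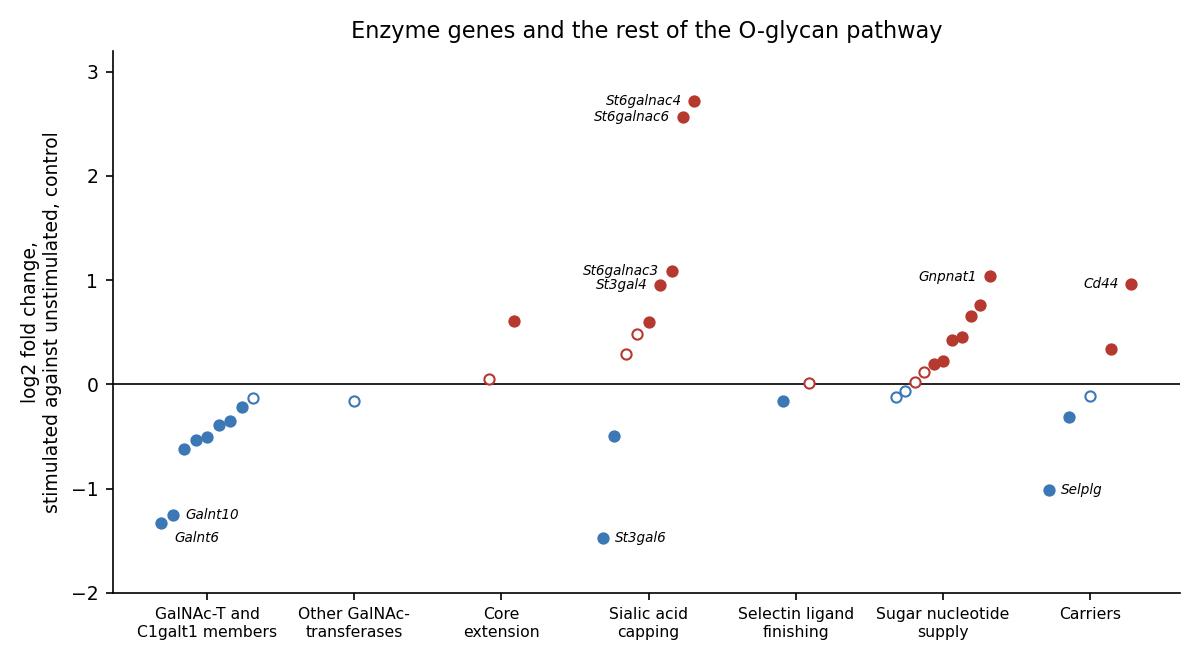
Log2 fold change of stimulated against unstimulated cells in control offspring for the 9 members tested and for the genes tested in 6 lists of the O-glycan pathway; filled points have an adjusted p under 0.05, red lies above and blue below 0, genes beyond 0.9 in size are named, and 1 sugar nucleotide gene is left out of the plot. All 9 members lie below 0, while the sugar nucleotide genes plotted that passed lie above it and the sialyltransferases reach from -1.47 to 2.72.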

How the data were processed

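Messenger RNA of 8 libraries was sequenced in pairs. According to the methods, the authors used Subread for alignment to mm10 and featureCounts for the counts over RefSeq genes; their versions are not given in the sources used here, nor is a strand setting. The deposited values are log2 of RPKM plus 1, shifted by 0.0001, as read from the values themselves, since the steps between low values recur only on that scale (91.4% against 0.311% of 2896 low genes). RPKM was back-transformed, and whole reads, library totals and counted lengths were recovered for 17787 genes, with 99.7% of lengths whole within 0.01. As the table holds no counts, the tests used limma 3.58.1 (R 4.3.3) on log2(RPKM + 0.1), with 4 group means, 4 residual degrees of freedom, a trend in the prior and a mean RPKM of at least 0.5 (12605 genes). The filter left out Galnt3, which was fitted without it. Stimulation was called at an adjusted p under 0.01 and over 2-fold, the fold and p thresholds of the methods without their cut on abundance, and also at 0.05, the threshold of the other comparisons. The members and lists were chosen with earlier results of these data known. The text names all 10 members and up to 3 called genes per list with the largest change, of which 1 is not reported here. Alternatives were other pseudocounts, filters, scalings, library subsets, a replicate block, a prior without trend and, added after seeing the data, voom on the recovered reads. Fits were tested on simulated data. Coordinates are from RefSeq GRCm38.p6, the build of mm10. Read intervals cover counting error only.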

Additional observations from a re-analysis of the deposited data

How the results depend on the processing

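The count of members that passed both the fold and the p threshold after stimulation was 2 in both exposures and became 3 without the filter on low values, where Galnt3 rose, and stayed at 2 under the other alternatives run. It was 0 in the Cd comparisons and the difference of responses under every alternative run. The count of members that fell at an adjusted p under 0.05 in control offspring went from 8 to 5 when unstimulated replicate 6 or stimulated replicate 7 was left out (leave-one-out range 5 to 8), where Galnt1, Galnt4 and C1galt1 lost their calls. Without the trend it was 7, since Galnt1 had an adjusted p of 0.0563. In Cd offspring it went from 9 to between 6 and 9 with a library left out, to 8 without the filter on low values and to 7 without the trend or with the libraries of the comparison alone. There C1galt1 had adjusted p values of 0.0554, 0.0655 and 0.0645, and Galnt7 0.0526 without the trend and 0.0596 with those libraries alone. No leave-one-out fit changed the direction of a stimulation response. Quantile normalization turned the Cd difference in unstimulated cells to 0.0217 for Galnt6 and 0.0188 for Galnt10, both near 0 before. Leaving out a library turned the sign of other Cd differences that had passed no test. In unstimulated cells they ran from -0.043 to 0.13 for Galnt1, -0.14 to 0.028 for Galnt3, -0.040 to 0.040 for Galnt6, -0.071 to 0.069 for Galnt10, -0.040 to 0.015 for Galnt12 and -0.096 to 0.16 for C1galt1. In stimulated cells they ran from -0.072 to 0.00013 for Galnt1, -0.089 to 0.052 for Galnt7 and -0.020 to 0.17 for C1galt1. The differences of responses ran from -0.17 to 0.0075 for Galnt1, -0.14 to 0.15 for Galnt4 and -0.085 to 0.17 for C1galt1. The deviations of equal replicate numbers from their group means correlated between -0.112 and 0.0635 over all pairs of groups. Unstimulated and stimulated libraries correlated at 0.0635 in control and 0.00851 in Cd offspring. With 2 libraries per group a deviation rests on a single difference, so these values cannot decide whether equal numbers share an animal. With a replicate block the members that fell numbered 8 in control and 9 in Cd offspring, and with a replicate block within exposure 8 and 8, where C1galt1 in Cd offspring reached an adjusted p of 0.053. With 2 libraries per group a lone library was assumed to vary like those of the other groups.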
